A study of Mus musculus with 39 samples.

Results

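Fast cAMP and CREB response genes were read in whole mouse testis. These are 10 genes, Nr4a1, Nr4a2, Nr4a3, Fos, Fosb, Junb, Sik1, Crem, Per1 and Rgs2, of 22180 genes that had a probe set annotated with a single symbol. They were listed by name, with earlier results of these data known. A gene with several such probe sets was read from the brightest of them, by its mean over the 39 arrays. All 10 had a probe set, and all 10 were among the 19007 genes that passed the filter on low values. Rgs2 was the only member with more than 1 probe set. The filter asks for a mean log2 intensity above 4.62 in at least 1 group, and no member depended on a single group to pass it: the lowest member value on any array was 5.03, for Nr4a2.

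The study compared 3 mouse lines with floxed Prkar1a, the gene for a regulatory subunit that holds protein kinase A inactive, with their wild-type (WT) littermates. The prKO line carried Sf1:Cre,Prkar1afl/fl, the srKO line Amh:Cre,Prkar1afl/fl and the lrKO line Cyp11a1:Cre,Prkar1afl/fl. Testes taken at 2 weeks gave arrays for 4 prKO, 4 srKO, 4 lrKO and 8 WT mice, and testes taken at 2 months gave arrays for 3 prKO, 4 srKO, 4 lrKO and 8 WT mice. Whether the WT mice carried a floxed allele or a Cre, and the strain, were not given in the sources used here. As background, the Sf1 promoter is active in the somatic precursors of the gonad and in the adrenal cortex, the Amh promoter in Sertoli cells, and the Cyp11a1 promoter in steroidogenic cells, so each line carries the recombined allele in some cells of the testis and not in others.

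When a hormone such as luteinizing hormone in Leydig cells or follicle-stimulating hormone in Sertoli cells raises cAMP, protein kinase A is released from its regulatory subunits and phosphorylates CREB, a transcription factor that sits on cAMP response elements near the starts of its target genes. The CRTC coactivators join CREB there, and a set of genes is switched on within minutes to hours without new protein synthesis. Some of these genes encode transcription factors that pass the signal on, and others, among them Sik1, Crem and Rgs2, encode proteins that damp it. In the testis the CREB family has a further role, because an activator form made from Crem drives genes of post-meiotic germ cells.

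Of the members, 8 were searched in the RefSeq promoter table (GRCm38.p6). They had 9 promoters of 300 bases, from 250 before to 50 after the start of the gene. Each of the 8 held the core of the cAMP response element, TGACG or its reverse complement CGTCA, searched on both strands, which 20.8% of the 32851 promoters in the table hold. None held the full palindrome TGACGTCA, which overlaps both cores and stands in 1.79% of promoters. Nr4a1, Nr4a2 and Nr4a3 had 4 cores each, Fos and Rgs2 had 2 each, and Fosb, Junb and each of the 2 Per1 promoters had 1. Sik1 had no entry used and Crem was left out before the search, so both are named only. The promoters of 4 members whose levels moved in different ways across the lines are shown 5′ to 3′, with the cores in capitals, so that their number and spacing can be compared.

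Nr4a1 promoter, chr15:101266596-101266895 (plus strand): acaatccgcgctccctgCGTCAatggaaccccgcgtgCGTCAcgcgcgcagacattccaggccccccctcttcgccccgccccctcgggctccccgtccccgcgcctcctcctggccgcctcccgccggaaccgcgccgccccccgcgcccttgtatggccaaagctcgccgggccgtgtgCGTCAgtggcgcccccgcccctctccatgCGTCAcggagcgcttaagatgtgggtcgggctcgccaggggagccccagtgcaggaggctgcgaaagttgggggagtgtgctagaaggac
Nr4a3 promoter, chr4:48045055-48045354 (plus strand): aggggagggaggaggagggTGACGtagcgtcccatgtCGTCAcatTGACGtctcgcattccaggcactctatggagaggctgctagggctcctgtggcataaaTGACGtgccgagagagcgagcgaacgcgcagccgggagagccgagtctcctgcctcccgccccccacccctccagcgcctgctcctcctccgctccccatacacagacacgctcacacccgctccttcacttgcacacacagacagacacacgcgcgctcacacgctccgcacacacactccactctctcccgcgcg
Fos promoter, chr12:85473640-85473939 (plus strand): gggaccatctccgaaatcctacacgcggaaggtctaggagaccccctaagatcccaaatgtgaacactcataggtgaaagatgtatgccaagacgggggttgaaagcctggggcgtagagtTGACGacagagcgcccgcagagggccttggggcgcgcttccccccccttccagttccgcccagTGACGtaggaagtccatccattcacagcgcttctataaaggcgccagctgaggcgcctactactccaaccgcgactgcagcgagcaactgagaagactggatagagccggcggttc
Rgs2 promoter, chr1:144004100-144004399 (minus strand): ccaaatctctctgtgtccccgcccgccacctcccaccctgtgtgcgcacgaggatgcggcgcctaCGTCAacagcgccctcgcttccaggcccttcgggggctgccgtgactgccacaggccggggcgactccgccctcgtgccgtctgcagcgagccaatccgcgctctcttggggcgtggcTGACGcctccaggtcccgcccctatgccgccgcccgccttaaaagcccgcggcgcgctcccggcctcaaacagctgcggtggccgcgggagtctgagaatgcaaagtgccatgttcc

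In these windows the cores of Nr4a1 were all in the CGTCA orientation and those of Fos in the TGACG orientation, while Nr4a3 and Rgs2 held both. A match to these letters is a description of the window only.

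Values are the authors' log2 intensities, so a difference of 1 is a doubling of intensity, and levels are compared only within a gene. Differences are given with the standard error of the limma fit, and p-values are adjusted over all 19007 genes tested, with 0.05 as the threshold. The median of an array was 5.96 to 6.02 at 2 weeks and 5.81 to 5.96 at 2 months. No group mean of Fos or Nr4a2 was above 5.94, the median of all values, so both genes read low throughout. Prkar1a read 8.04 to 8.33 in prKO, 8.36 to 8.64 in srKO and 8.98 to 9.08 on arrays labelled lrKO at 2 weeks, against 8.84 to 9.14 in WT. At 2 months it read 8.36 to 8.66 in prKO, 8.98 to 9.18 on arrays labelled srKO and 8.86 to 8.90 on arrays labelled lrKO, against 8.61 to 9.00 in WT. On the arrays labelled srKO it was thus higher than in WT at 2 months (0.24 ± 0.08, adjusted p = 0.0302), and on those labelled lrKO it was not called at 2 weeks or 2 months, so directions from these groups rest on the labels. The probe set reads the whole testis and is not known to lie in the deleted part. Markers of epididymis were high on prKO replicate 1 at 2 months (log2 of their summed level 11.79, next highest at that age 7.60) and on prKO replicate 3 at 2 weeks (8.69, next 7.54), and smooth muscle markers on WT replicate 4 at 2 weeks (13.51, next 12.62). Calls of the members that were lost or gained without these 3 arrays are given both ways. In whole testis, fewer cells of a type and less RNA per cell cannot be told apart.

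**Figure D1:**
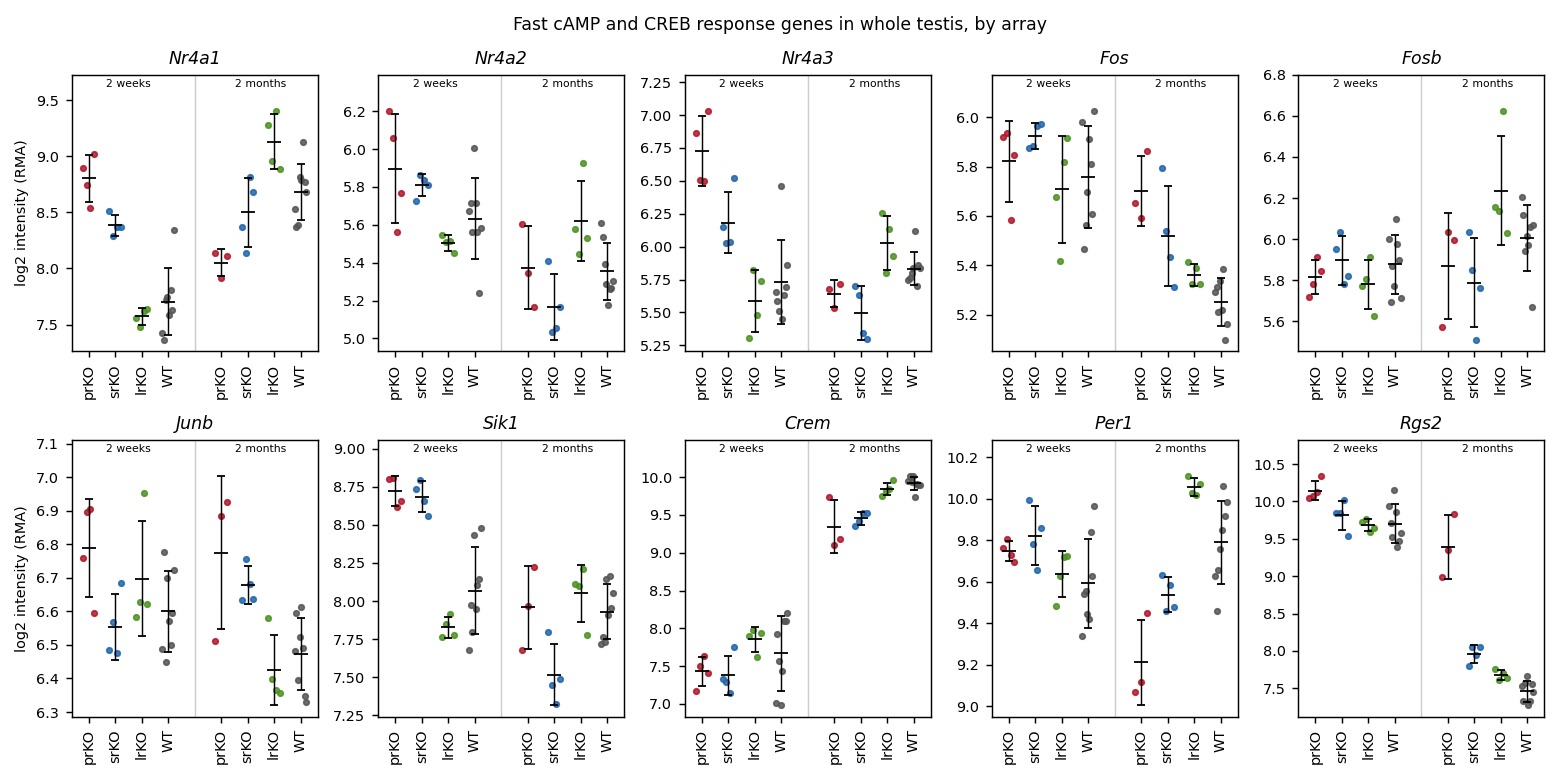
Log2 intensity (authors' RMA values) of the 10 genes on each of the 39 arrays, by line and age, with group means and SD as bars. Nr4a1 and Sik1 stand above all or nearly all WT arrays in prKO and srKO at 2 weeks and not at 2 months, while Rgs2 in prKO at 2 months reads 8.99 to 9.83 against 7.27 to 7.66 in WT.

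At 2 weeks, 4 of the 10 genes were higher in prKO than in WT and 0 were lower, where 10.5% of all genes tested passed the test, 7.9% higher and 2.59% lower. The 4 were the nuclear receptor genes Nr4a1 and Nr4a3, the kinase gene Sik1 and the G protein regulator gene Rgs2. The median difference over the 10 members was 0.23, against -0.01 over all genes tested. The AP-1 genes and the clock gene Per1 were not called.

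Nr4a1 encodes NUR77, an orphan nuclear receptor that luteinizing hormone induces in Leydig cells and that acts on promoters of steroidogenic genes. It read 8.90, 8.75, 8.54 and 9.02 in prKO, against a lowest of 7.36, a median of 7.68 and a highest of 8.34 in WT. All 4 prKO arrays lay above every WT array, including WT replicate 8, which at 8.34 stood apart from the next WT array at 7.81. The difference was 1.10 ± 0.13, or 2.14-fold (adjusted p = 9.52e-06). Nr4a3, which encodes the related receptor NOR1, read 6.87, 6.50, 6.50 and 7.03 in prKO, against a lowest of 5.45, a median of 5.65 and a highest of 6.46 in WT. The groups did not overlap, and the difference was 0.99 ± 0.16, or 1.99-fold (adjusted p = 0.000308). Nr4a2, the third receptor gene of the family, read 6.20, 6.06, 5.56 and 5.77 in prKO, against 5.24, 5.63 and 6.01 (lowest, median and highest) in WT. Its groups overlapped and it was not called (0.26 ± 0.11, adjusted p = 0.14), but it passed the test without the 3 arrays high in markers of other tissue (0.43, adjusted p = 0.00585), and also without prKO replicate 3 alone (0.38, adjusted p = 0.0422) or WT replicate 4 alone (0.32, adjusted p = 0.0397).

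Sik1 encodes a salt-inducible kinase that keeps CRTC coactivators out of the nucleus and so closes a feedback loop on CREB. It read 8.80, 8.81, 8.62 and 8.66 in prKO, against a lowest of 7.68, a median of 8.04 and a highest of 8.48 in WT. The groups did not overlap, with a difference of 0.65 ± 0.12, or 1.57-fold (adjusted p = 0.000876). Rgs2, whose protein shortens the signal of Gq-coupled receptors, read 10.04, 10.07, 10.13 and 10.33 in prKO, against 9.39, 9.65 and 10.15 (lowest, median and highest) in WT. Only prKO replicate 4 lay above every WT array, and the difference was 0.44 ± 0.12 (adjusted p = 0.0215). Without that replicate Rgs2 was not called (0.38, adjusted p = 0.0929), and against WT replicates 1 to 4 alone it was 0.31 (adjusted p = 0.22). The second Rgs2 probe set had group means of 4.17 to 4.88, near the filter value, and was not used.

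Fos, Fosb and Junb encode subunits of the AP-1 transcription factor. Junb read 6.60 to 6.91 in prKO and 6.45 to 6.78 in WT, a difference of 0.19 (adjusted p = 0.152). Fos read 5.58 to 5.93 in prKO and 5.47 to 6.02 in WT, a difference of 0.06 (adjusted p = 0.755), and Fosb differed by -0.06 (adjusted p = 0.665). The ranges of all 3 overlapped. Per1, a repressor of the circadian clock with cAMP response elements, read 9.69 to 9.81 in prKO and 9.34 to 9.97 in WT (0.16, adjusted p = 0.321).

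Markers of other cell types moved in the same arrays. Of the 6 Leydig cell markers listed, 4 (Star, Cyp11a1, Cyp17a1 and Hsd3b1) were measured, and all 4 were higher in prKO at 2 weeks. The log2 of their summed level was 13.14 to 13.67 in prKO, against 10.27 to 11.48 in WT. Insl3 and Lhcgr were not measured, and the 4 that were are all steroidogenic genes. More Leydig cells and more RNA per cell thus cannot be told apart, here and in the later comparisons. Of 6 macrophage markers 3 were higher (summed level 10.86 to 11.16 in prKO, against 10.01 to 10.79 in WT), and of 6 endothelial markers 3 were higher (10.63 to 11.18 in prKO, against 10.22 to 11.03 in WT). None of these markers was below the filter value on every array, and their part in the differences of Nr4a1, Nr4a3, Sik1 and Rgs2 was not tested.

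In srKO at 2 weeks, 2 of the 10 genes were higher than in WT and 0 were lower, where 0.873% of all genes passed the test, 0.784% higher and 0.0894% lower. These were Nr4a1 and Sik1. The median difference over the members was 0.17, against 0.01 over all genes.

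Nr4a1 read 8.51, 8.29, 8.37 and 8.37 in srKO, against a lowest of 7.36, a median of 7.68 and a highest of 8.34 in WT. WT replicate 8 reached into the srKO range and the other 7 WT arrays lay below it. The difference was 0.68 ± 0.13, or 1.60-fold (adjusted p = 0.0168). Sik1 read 8.73, 8.79, 8.66 and 8.56 in srKO, against 7.68, 8.04 and 8.48 (lowest, median and highest) in WT, with no overlap. Its difference was 0.62 ± 0.12, or 1.53-fold (adjusted p = 0.0166). Each of these calls was lost when srKO replicate 1, 2 or 3 was left out, with a difference of 0.64 to 0.71 for Nr4a1 and 0.58 to 0.63 for Sik1, and adjusted p-values of 0.0547 to 0.0935 for Nr4a1 and 0.0503 to 0.0883 for Sik1. With WT replicates 5 to 8 as the only controls, Nr4a1 lost its call as well (0.54, adjusted p = 0.0829).

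Nr4a3 read 6.15, 6.03, 6.03 and 6.52 in srKO, against 5.45, 5.65 and 6.46 (lowest, median and highest) in WT. Only WT replicate 4, at 6.46, stood among the srKO arrays, since the next WT array was at 5.86. The gene was not called with that array (0.45 ± 0.16, adjusted p = 0.199), and it was called without it (0.55, adjusted p = 0.0308). The other 7 members gave differences of -0.29 to 0.23, none of them past the threshold. Against WT replicates 1 to 4 alone Per1 was called higher (0.35, adjusted p = 0.0219). The 4 measured Leydig cell markers were not called in srKO at 2 weeks (median 0.29, summed level 11.00 to 11.42 in srKO, against 10.27 to 11.48 in WT), nor were the 6 macrophage markers (median -0.32). At an unadjusted p under 0.05 these counts were 1 and 3 in limma's test. Of 7 Sertoli cell markers 1 was higher (summed level 13.05 to 13.24 in srKO, against 12.89 to 13.11 in WT), and of 6 spermatogonia markers 2 were higher, with a median of 0.23 (summed level 13.04 ± 0.03 in srKO, n = 4, against 12.92 ± 0.05 in WT, n = 8, mean and SD, with no overlap). Of 7 spermatocyte markers 0 were called in limma's test and 3 passed an unadjusted p of 0.05, with a median of -0.52 (11.82 to 12.81 in srKO, against 11.85 to 13.10 in WT). The part of these cell types in the differences of Nr4a1 and Sik1 was not tested.

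On arrays labelled lrKO at 2 weeks, 0 of the 10 genes were called in limma's test, where 0.1% of all genes were (0.0368% higher and 0.0631% lower), and 0 passed an unadjusted p of 0.05. Nr4a1 read 7.56, 7.48, 7.62 and 7.64 on arrays labelled lrKO, inside the WT range of 7.36 to 8.34. Sik1 read 7.77, 7.85, 7.92 and 7.78, inside the WT range of 7.68 to 8.48. The 95% interval of the difference from WT was -0.40 to 0.14 for Nr4a1 and -0.48 to 0.00 for Sik1. The number of all genes called at 2 weeks depended on which WT arrays served as controls. On arrays labelled lrKO it was 19 with all WT arrays, 942 with WT replicates 1 to 4 alone and 22 with replicates 5 to 8 alone. In the same order it was 166, 875 and 92 in srKO and 1994, 723 and 4802 in prKO. The shares given for this age are those with all WT arrays.

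The lines were also set against each other at 2 weeks. Between srKO and lrKO 2 of the 10 genes differed, where 1.95% of all genes did (1.54% higher and 0.405% lower). Nr4a1 was 0.81 ± 0.15 higher in srKO than on arrays labelled lrKO (adjusted p = 0.00875) and Sik1 0.86 ± 0.13 higher (adjusted p = 0.00223), with no overlap for either gene. Nr4a3 also had every srKO array above every lrKO array (6.03 to 6.52 in srKO, against 5.30 to 5.82 on arrays labelled lrKO), but its difference of 0.60 ± 0.18 did not pass the threshold (adjusted p = 0.0963). It did so with the 3 arrays high in other tissue left out, 2 of which share its fit (adjusted p = 0.0309).

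Between prKO and srKO at 2 weeks 0 of the 10 genes were called in limma's test, where 11.8% of all genes were (6.9% higher and 4.85% lower), and 4 passed an unadjusted p of 0.05. Nr4a1 was 0.42 higher in prKO (95% interval 0.11 to 0.73, adjusted p = 0.0756), with all 4 prKO arrays above all 4 srKO arrays. Nr4a3 was 0.54 higher (0.16 to 0.93, adjusted p = 0.0616) and Rgs2 0.33 higher (0.04 to 0.62, adjusted p = 0.129). With the 3 arrays high in other tissue left out, Nr4a1 (0.51, adjusted p = 0.0477) and Nr4a3 (0.62, adjusted p = 0.0101) were called. Sik1 differed by 0.04 between the lines, with an interval of -0.25 to 0.32. All 4 measured Leydig cell markers were higher in prKO than in srKO, with a median of 2.06, and 5 of 6 macrophage markers were higher, with a median of 0.84.

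**Figure D2:**
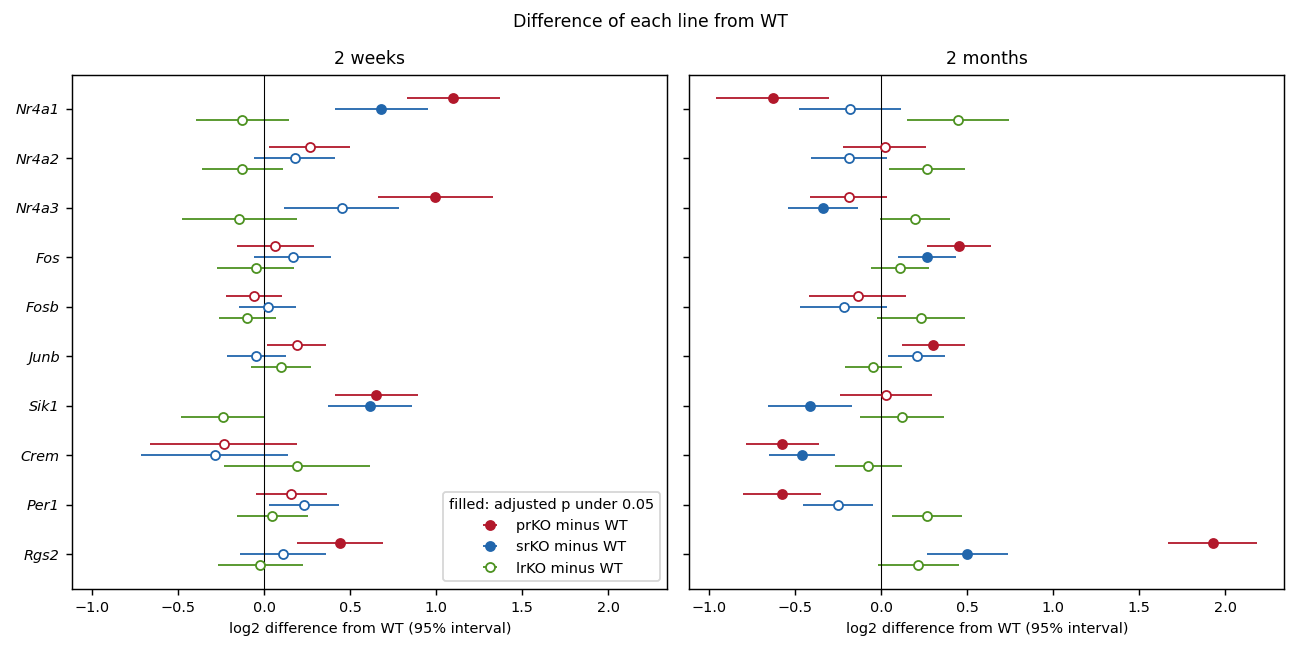
Log2 difference of each line from WT for the 10 genes at 2 weeks (left) and 2 months (right), with 95% intervals, filled where the adjusted p was under 0.05. Nr4a1 in prKO stands at 1.10 at 2 weeks and at -0.63 at 2 months, and all lrKO points are open.

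In WT testes 81.6% of all genes differed between 2 months and 2 weeks, 26.7% higher and 55% lower at 2 months, with a median of -0.24 over all genes. Age is also the time of sampling here and cannot be told apart from it. At 2 months 3 of the 10 genes were higher and 3 were lower, and the members' median was -0.01. Crem and Nr4a1 were the members with the largest increases, and Rgs2 the one with the largest decrease. A further centring of the arrays moved the median of all genes to -0.12 and renewed quantile normalization to -0.13.

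Crem encodes both activators of CREB-type promoters and the repressor ICER, which is made from an internal promoter, and the probe set is annotated by gene only. It read 9.74, 9.92 and 10.01 (lowest, median and highest) in WT at 2 months, against 6.98, 7.75 and 8.21 at 2 weeks. The ages did not overlap, and the difference was 2.25 ± 0.13, or 4.76-fold (adjusted p = 1.51e-17). Rgs2 read 7.27, 7.49 and 7.66 at 2 months, against 9.39, 9.65 and 10.15 at 2 weeks, a 4.73-fold lower level at 2 months (-2.24 ± 0.10, adjusted p = 1.23e-21). Nr4a1 read 8.37, 8.73 and 9.13 at 2 months, against 7.36, 7.68 and 8.34 at 2 weeks, and all 8 older testes lay above all 8 younger ones (0.98 ± 0.11, adjusted p = 9.44e-10).

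Fos was lower at 2 months in all 8 testes than in any at 2 weeks (5.10 to 5.38 at 2 months, against 5.47 to 6.02 at 2 weeks, difference -0.51 ± 0.08, adjusted p = 3.34e-07). Nr4a2 was lower by a smaller step (-0.28 ± 0.09, adjusted p = 0.00556) and was not called after centring (-0.17, adjusted p = 0.0927) or renewed quantile normalization (-0.18, adjusted p = 0.072). Per1 was higher by 0.20 ± 0.08 (adjusted p = 0.0249) with overlapping ages, and it was not called without any of WT replicates 1, 4 and 5 of 2 weeks or 6, 7 and 8 of 2 months (0.16 to 0.18, adjusted p = 0.05 to 0.0703). At 2 months its WT replicates 1 to 4 read 9.46 to 9.76 and replicates 5 to 8 read 9.85 to 10.06, so the WT arrays fell into separate ranges. Those of Crem at 2 months did so too, at 9.93 to 10.01 and 9.74 to 9.91 in the same order. Without the 3 arrays high in other tissue, of which WT replicate 4 of 2 weeks is in this contrast, Per1 was not called (0.18, adjusted p = 0.0538). Nr4a3, Fosb, Junb and Sik1 differed by -0.14 to 0.13 and were not called. Fosb was called higher at 2 months after centring (0.24, adjusted p = 0.00932) or renewed quantile normalization (0.24, adjusted p = 0.00867), and Nr4a3 without WT replicate 4 of 2 weeks (0.20, adjusted p = 0.0453) or all 3 arrays (0.20, adjusted p = 0.0443). Junb was called lower at 2 months without any of WT replicate 3 of 2 weeks and WT replicates 2 and 5 of 2 months (-0.15, adjusted p = 0.0413 to 0.0484).

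Marker lists of 7 cell types also differed between the ages on the WT arrays. The log2 of their summed level was 14.92 to 15.12 at 2 months, against 10.31 to 10.57 at 2 weeks, for spermatids and 13.42 to 13.64, against 11.85 to 13.10, for spermatocytes. It was 11.25 ± 0.08 at 2 months, against 12.92 ± 0.05 at 2 weeks, for spermatogonia (mean and SD, n = 8 each) and 11.17 to 11.46, against 12.89 to 13.11, for Sertoli cells. For Leydig cells it was 11.97 to 12.55 at 2 months, against 10.27 to 11.48 at 2 weeks, for endothelium 8.97 to 9.27, against 10.22 to 11.03, and for smooth muscle 10.55 to 11.04, against 12.22 to 13.51. The arrays of the 2 ages did not overlap for any of these 7 lists, and the part of these cell types in the members' differences was not tested.

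At 2 months 6 of the 10 genes differed between prKO and WT, where 48.4% of all genes did (26% higher and 22.4% lower). Rgs2, Fos and Junb were higher, and Nr4a1, Per1 and Crem were lower. The members' median difference was -0.06, against 0.02 over all genes.

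Rgs2 read 8.99, 9.35 and 9.83 in prKO, against a lowest of 7.27, a median of 7.49 and a highest of 7.66 in WT. The difference was 1.93 ± 0.12, or 3.80-fold, with no overlap (adjusted p = 2.74e-09), and 1 prKO array, at 9.83, lay inside the WT range of 2 weeks (9.39 to 10.15). Fos read 5.65, 5.59 and 5.86 in prKO, against 5.10 to 5.38 in WT, and its groups did not overlap (0.45 ± 0.09, adjusted p = 0.000337). Junb read 6.51, 6.88 and 6.93 in prKO, against 6.33 to 6.61 in WT (0.30 ± 0.09, adjusted p = 0.00783). Its call was lost without prKO replicate 2 (0.25, adjusted p = 0.053) or replicate 3 (0.23, adjusted p = 0.0799).

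Nr4a1, higher in prKO than in WT at 2 weeks, was lower at 2 months. It read 8.14, 7.91 and 8.11 in prKO, against 8.37, 8.73 and 9.13 (lowest, median and highest) in WT, with all 3 prKO arrays below every WT array (-0.63 ± 0.16, a 1.55-fold lower level, adjusted p = 0.0024). Per1 read 9.07, 9.12 and 9.45 in prKO, against 9.46, 9.81 and 10.06 in WT (-0.58 ± 0.11, adjusted p = 0.000199), also without overlap. Crem read 9.74, 9.10 and 9.19 in prKO, against 9.74, 9.92 and 10.01 in WT (-0.57 ± 0.10, adjusted p = 0.000115). The high prKO array for Crem was replicate 1, the one with epididymal markers. Nr4a3, Sik1, Nr4a2 and Fosb differed by -0.19 to 0.03 and were not called.

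Marker lists differed widely in the same arrays. Of 9 spermatid markers 8 were lower in prKO and 1 was higher (summed level 13.69 to 14.46 in prKO, against 14.92 to 15.12 in WT), and of 7 spermatocyte markers 5 were lower. All 6 endothelial markers were higher (9.94 to 11.20 in prKO, against 8.97 to 9.27 in WT), as were all 6 macrophage markers (10.27 to 10.94 in prKO, against 9.71 to 10.04 in WT). Of the 4 measured Leydig cell markers 3 were higher (13.05 to 13.91 in prKO, against 11.97 to 12.55 in WT). The summed level of Sertoli cell markers was 11.75 to 12.43 in prKO, against 11.17 to 11.46 in WT. That of smooth muscle markers was 11.15 to 11.60 in prKO, against 10.55 to 11.04 in WT. The part of these cell types in the differences of the 6 genes was not tested.

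On arrays labelled srKO at 2 months 5 of the 10 genes differed from WT, where 25.4% of all genes did (14.7% higher and 10.8% lower). Rgs2 and Fos were higher, and Crem, Sik1 and Nr4a3 were lower. The members' median difference was -0.20, against 0.03 over all genes.

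Rgs2 read 7.80, 8.05, 7.95 and 8.05 on arrays labelled srKO, against 7.27, 7.49 and 7.66 in WT, with no overlap (0.50 ± 0.11, 1.41-fold, adjusted p = 0.00236). Crem read 9.35, 9.43, 9.53 and 9.53, against 9.74, 9.92 and 10.01 in WT, also with no overlap (-0.46 ± 0.09, adjusted p = 0.000904). Sik1 read 7.80, 7.45, 7.33 and 7.49, against 7.72, 7.93 and 8.17 in WT (-0.41 ± 0.12, adjusted p = 0.0124). Sik1 was thus higher than in WT in srKO at 2 weeks and lower on the arrays labelled srKO at 2 months. Nr4a3 read 5.70, 5.63, 5.34 and 5.30, against 5.70, 5.82 and 6.12 in WT (-0.34 ± 0.10, adjusted p = 0.0136), and Fos read 5.79, 5.54, 5.43 and 5.31, against 5.10, 5.25 and 5.38 in WT (0.27 ± 0.08, adjusted p = 0.0186).

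The calls of Fos, Nr4a3 and Sik1 rested on single arrays. With srKO replicate 1 left out the difference of Fos was 0.18 (adjusted p = 0.114), and with replicate 2 left out it was 0.26 (adjusted p = 0.0535). Leaving out srKO replicate 3 gave -0.29 for Nr4a3 (adjusted p = 0.0558) and -0.35 for Sik1 (adjusted p = 0.053), and leaving out replicate 4 gave -0.27 for Nr4a3 (adjusted p = 0.0666). Junb read 6.64 to 6.76 on arrays labelled srKO, above every WT array (6.33 to 6.61), and did not pass the threshold (0.21 ± 0.08, adjusted p = 0.0657). It passed with the 3 arrays high in other tissue left out, of which prKO replicate 1 shares its fit (0.21, adjusted p = 0.0281), with only the groups compared in the fit (0.21, adjusted p = 0.0396) and with array weights (0.19, adjusted p = 0.049). Per1 was not called either (-0.25, adjusted p = 0.067). Centring (-0.28, adjusted p = 0.0449) or array weights (-0.28, adjusted p = 0.0246) made it a call. Dropping WT replicate 2 did so too (-0.30, adjusted p = 0.0201), as did keeping only the later 4 WT replicates (-0.41, adjusted p = 0.00338). Its difference ran from -0.41 to -0.09 over the alternatives without an array left out, with adjusted p up to 0.57. Of 9 spermatid markers 7 were lower on arrays labelled srKO (summed level 13.47 to 14.24, against 14.92 to 15.12 in WT), 4 of 6 macrophage markers were higher (10.21 to 10.70, against 9.71 to 10.04 in WT) and 4 of 6 endothelial markers were higher (9.55 to 10.01, against 8.97 to 9.27 in WT). Of the 4 measured Leydig cell markers 2 were higher (12.51 to 13.02, against 11.97 to 12.55 in WT), of 7 Sertoli cell markers 2 were higher and 1 lower (11.84 to 12.14, against 11.17 to 11.46 in WT), and of 5 smooth muscle markers 2 were higher (10.86 to 11.17, against 10.55 to 11.04 in WT). Their part in the differences was not tested.

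On arrays labelled lrKO at 2 months 0 of the 10 genes were called in limma's test, where 0.184% of all genes were (0.11% higher and 0.0737% lower), while 3 passed an unadjusted p of 0.05. Nr4a1 read 9.28, 8.96, 9.40 and 8.89 on arrays labelled lrKO, against 8.37, 8.73 and 9.13 (lowest, median and highest) in WT (0.45 ± 0.14, 95% interval 0.15 to 0.74, adjusted p = 0.337). Per1 read 10.11, 10.03, 10.02 and 10.07, against 9.46, 9.81 and 10.06 in WT (0.27 ± 0.10, 95% interval 0.06 to 0.47, adjusted p = 0.446). Nr4a2 was 0.27 above WT (adjusted p = 0.49). Of the 10 differences 8 were positive, with a median of 0.21, where 47% of all genes had a positive difference, with a median of -0.01.

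Between prKO and srKO at 2 months 2 of the 10 genes were called, where 25.6% of all genes were (13.4% higher and 12.1% lower). Rgs2 was 1.43 ± 0.14 higher in prKO, or 2.69-fold (adjusted p = 3.8e-06), and the lines did not overlap (8.99 to 9.83 in prKO, against 7.80 to 8.05 on arrays labelled srKO). Sik1 was 0.44 ± 0.15 higher in prKO (7.68, 7.97 and 8.22 in prKO, against 7.80, 7.45, 7.33 and 7.49 on arrays labelled srKO, adjusted p = 0.0319). The Sik1 call was lost without any of prKO replicates 2 and 3 and srKO replicates 2, 3 and 4 (0.31 to 0.44, adjusted p = 0.0576 to 0.198), with only the groups compared in the fit (0.44, adjusted p = 0.125) and with the replicate number as a block (0.44, adjusted p = 0.0947). Nr4a1 was lower in prKO than on every array labelled srKO, by 0.45 (adjusted p = 0.0677), and so was Per1, by 0.33 (adjusted p = 0.0554), without passing the threshold. Per1 passed it with the stricter filter, centring, a trended robust fit, all 8 groups or the replicate block (-0.35 to -0.32, adjusted p = 0.041 to 0.0491). It also passed with either set of 4 WT arrays alone (-0.33, adjusted p = 0.0272 and 0.0199) and without prKO replicate 3 (-0.44, adjusted p = 0.0289). Nr4a1 passed without srKO replicate 2 (-0.57, adjusted p = 0.0231) and Fos without srKO replicate 1 (0.27, adjusted p = 0.0377). Crem was not called either (-0.11 ± 0.11, adjusted p = 0.496), but it was lower in prKO without prKO replicate 1, the array with epididymal markers (-0.31, adjusted p = 0.0143).

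The difference from WT was then compared between the ages, as the difference at 2 months minus that at 2 weeks in 1 model of all 8 groups. In prKO 6 of the 10 genes changed, where 28.2% of all genes did (15.8% with a positive and 12.3% with a negative change). Nr4a1 changed by -1.73 ± 0.21 (adjusted p = 1.11e-07), from a positive to a negative difference, and Nr4a3 by -1.18 ± 0.20 (adjusted p = 2.76e-05). Per1 changed by -0.74 ± 0.15 (adjusted p = 0.000208) and Sik1 by -0.62 ± 0.18 (adjusted p = 0.00715), whereas Rgs2 changed by 1.49 ± 0.18 (adjusted p = 8.88e-08) and Fos by 0.39 ± 0.14 (adjusted p = 0.0385). Nr4a1, Nr4a3, Per1 and Sik1 thus went the opposite way to Rgs2 and Fos. Sik1 was not called without prKO replicate 1 of 2 months (-0.48, adjusted p = 0.0502). Fos was not called without any of prKO replicate 3 of either age, WT replicates 1, 5 and 8 of 2 weeks and WT replicates 7 and 8 of 2 months (0.31 to 0.37, adjusted p = 0.0518 to 0.16), nor without the 3 arrays high in other tissue (0.34, adjusted p = 0.124). Its call was also lost after centring (0.32, adjusted p = 0.0952), after renewed quantile normalization (0.33, adjusted p = 0.0763), with array weights (0.40, adjusted p = 0.105), with only the groups compared in the fit (0.39, adjusted p = 0.0545) and with WT replicates 1 to 4 as the only controls (0.27, adjusted p = 0.246). Nr4a2 was not called (-0.25 ± 0.17, adjusted p = 0.295), but changed without the 3 arrays (-0.53, adjusted p = 0.013). Crem was not called (-0.34 ± 0.24, adjusted p = 0.336), but changed with WT replicates 1 to 4 as the only controls (-0.69, adjusted p = 0.0325).

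In srKO 4 of the 10 genes changed between the ages, where 17.2% of all genes did (8.49% with a positive and 8.76% with a negative change), and all 4 changes were negative. They were Sik1 (-1.03 ± 0.17, adjusted p = 2.65e-05), Nr4a1 (-0.86 ± 0.20, adjusted p = 0.00179), Nr4a3 (-0.79 ± 0.19, adjusted p = 0.00328) and Per1 (-0.48 ± 0.14, adjusted p = 0.0142). Nr4a2 was not called (-0.36 ± 0.16, adjusted p = 0.11), but changed without the 3 arrays high in other tissue (-0.42, adjusted p = 0.0265). For the arrays labelled lrKO 0 of the 10 genes were called in limma's test, where 0.1% of all genes were (0.0526% with a positive and 0.0474% with a negative change), and 4 passed an unadjusted p of 0.05. The 3 changes share the WT arrays of both ages, and age cannot be told apart from the time of sampling in them.

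Crem was set beside genes of its germ cell pathway. Fhl5 encodes ACT, a testis coactivator of CREM that works without phosphorylation of CREM, and Prm1, Tnp1, Tnp2 and Smcp are post-meiotic genes of that pathway that package sperm DNA or form the mitochondrial sheath. In WT at 2 months Fhl5 read 10.41 to 10.83, against 5.58 to 6.80 at 2 weeks (4.22 ± 0.14), and Prm1 read 11.27 to 11.81, against 5.98 to 6.51 (5.40 ± 0.20). Of the 5 post-meiotic genes tested, of 6 listed, 4 were higher in WT at 2 months and Odf1 was lower (-0.38 ± 0.07), where 26.7% of all genes were higher and 55% lower. Odf1 thus ran against the other 4, and whether its probe set reads the spermatid transcript was not tested.

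At 2 months most of these genes were lower in prKO and on arrays labelled srKO, together with Crem. The post-meiotic genes are all on the list of spermatid markers as well, so their counts repeat part of the spermatid counts above. The part of spermatid content in these differences was not tested. Prm1 read 9.95, 9.55 and 10.68 in prKO and 10.35, 9.79, 7.69 and 9.20 on arrays labelled srKO, against 11.27, 11.67 and 11.81 (lowest, median and highest) in WT. Neither line overlapped WT, and the differences were -1.53 ± 0.34 in prKO (adjusted p = 0.00105) and -2.33 ± 0.31 in srKO. Of the 5 genes tested 4 were lower and 1 higher in prKO, where 22.4% of all genes were lower and 26% higher (median -1.07, against 0.02 over all genes). In srKO 4 were lower and 0 higher, where 10.8% of all genes were lower and 14.7% higher (median -1.84, against 0.03). The gene higher in prKO was Odf1 (0.46 ± 0.10). Fhl5 was lower by 0.82 ± 0.17 in prKO (adjusted p = 0.000434) and by 0.97 ± 0.15 in srKO, without overlap with WT. On arrays labelled lrKO 0 of the 5 genes were called in limma's test, and 0 passed an unadjusted p of 0.05.

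At 2 weeks Crem did not differ from WT past the threshold in any line. It read 7.17, 7.50, 7.64 and 7.41 in prKO, 7.33, 7.29, 7.15 and 7.75 in srKO and 7.89, 7.98, 7.62 and 7.94 on arrays labelled lrKO, against 6.98, 7.75 and 8.21 (lowest, median and highest) in WT. The difference in prKO was -0.24 ± 0.20 (adjusted p = 0.491), and with only WT replicates 5 to 8 as controls it was called (-0.53, adjusted p = 0.0248). WT replicates 1 to 4 averaged 7.37 and replicates 5 to 8 averaged 7.96. The WT arrays alone spanned more than 1 log2 unit, and they also spanned 11.85 to 13.10 in the summed level of spermatocyte markers. Fhl5 nevertheless was higher in prKO at 2 weeks, at 7.86, 7.49, 7.59 and 8.33, against 5.58, 6.46 and 6.80 in WT (1.43 ± 0.17, 2.69-fold, all 4 above every WT array). It was also 1.63 ± 0.20 higher in prKO than in srKO, where it read 6.12 to 6.32. Of the 9 tested spermatid markers 0 were called in limma's test in prKO at 2 weeks and 1 passed an unadjusted p of 0.05, with a summed level of 10.50 to 10.62 in prKO and 10.31 to 10.57 in WT.

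**Figure D3:**
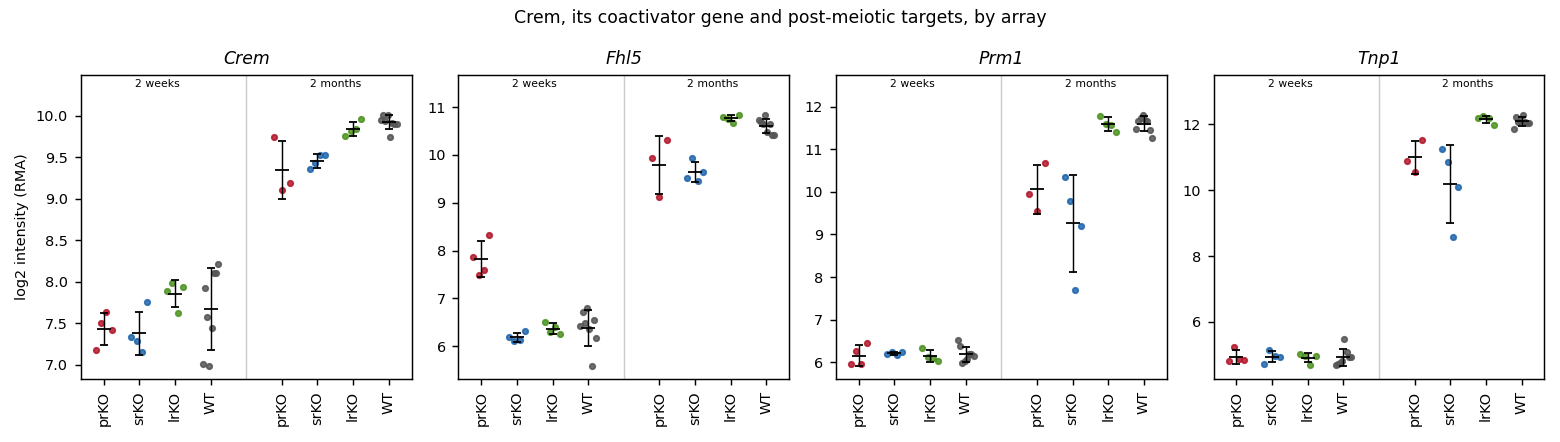
Log2 intensity (authors' RMA values) of Crem, of Fhl5, the gene of its coactivator, and of the post-meiotic targets Prm1 and Tnp1 on each array, with group means and SD as bars. Fhl5 in prKO at 2 weeks reads 7.49 to 8.33, above all WT arrays of that age, and Prm1 at 2 months is below WT on every prKO and srKO array.

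Of the 9 factors of the CREB pathway itself that were tested (of 10 listed, among them Creb1, the CRTC coactivators, the histone acetylases Crebbp and Ep300 and further SIK kinases), Fhl5 was the only call in prKO at 2 weeks, where 10.5% of all genes passed the test. For srKO of that age 0 were called in limma's test, where 0.873% of all genes were, with 2 at an unadjusted p under 0.05. In prKO at 2 months Crtc3 (0.55 ± 0.13) and Crebbp (0.34 ± 0.07) were higher and Sik3 (-0.29 ± 0.09) lower beside Fhl5, so 4 of the 9 were called, where 48.4% of all genes were. On arrays labelled srKO at 2 months Fhl5 was the only call, where 25.4% of all genes were called. In WT 2 of the 9 were higher and 6 lower at 2 months than at 2 weeks, where 26.7% of all genes were higher and 55% lower, with Crtc3 lower by 1.72 ± 0.08 and Crtc1 lower by 1.21 ± 0.08.

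Further CREB target genes were read beside the members. Of 12 tested, of 14 listed, 2 were higher and 0 lower in prKO at 2 weeks, where 7.9% of all genes were higher and 2.59% lower, with a median of 0.06, against -0.01 over all genes. Dusp1, whose phosphatase switches off MAP kinases, read 8.52, 8.03, 8.15 and 8.48 in prKO, against 7.36, 7.49 and 7.90 (lowest, median and highest) in WT, with no overlap (0.74 ± 0.12, 1.67-fold, adjusted p = 0.00032). Nfil3, a transcriptional repressor, was 0.29 ± 0.09 higher (adjusted p = 0.0475). In srKO at 2 weeks 0 of the 12 were called in limma's test, 0 passed an unadjusted p of 0.05, and Dusp1 was 0.63 ± 0.14 higher in prKO than in srKO (adjusted p = 0.00569). At 2 months 1 of the 12, Nfil3, was higher in prKO (0.37 ± 0.12) and 0 were lower, where 48.4% of all genes were called. On arrays labelled srKO 0 of the 12 were called in limma's test, where 25.4% of all genes were, with 1 at an unadjusted p under 0.05.

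Other early response genes are switched on by growth factors and stress as well as by cAMP. Of 21 tested, of 22 listed, 3 were higher and 0 lower in prKO at 2 weeks (Cebpb 0.38 ± 0.11, Fosl2 0.35 ± 0.11 and Klf4 0.30 ± 0.09), where 10.5% of all genes were called, with a median of 0.07, against -0.01 over all genes. In srKO at 2 weeks 0 were called in limma's test where 0.873% of all genes were, and 4 passed an unadjusted p of 0.05, while all 21 differences were positive, with a median of 0.13, where 51.9% of all genes had a positive difference. At 2 months 13 were higher and 3 lower in prKO, where 26% of all genes were higher and 22.4% lower, with a median of 0.59, against 0.02 over all genes. On arrays labelled srKO 9 were higher and 3 lower, where 14.7% of all genes were higher and 10.8% lower, with a median of 0.22, against 0.03.

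Fosl2, an AP-1 subunit, read 7.70, 7.85 and 8.56 in prKO at 2 months and 7.21, 7.58, 7.27 and 7.34 on arrays labelled srKO, against 6.56, 6.72 and 7.02 (lowest, median and highest) in WT. Jun, its partner, read 7.94, 8.01 and 8.17 in prKO and 7.63, 8.10, 7.88 and 7.78 on arrays labelled srKO, against 6.85, 7.13 and 7.34 in WT. Neither line overlapped WT for these genes, with differences of 1.29 ± 0.15 (prKO) and 0.61 ± 0.14 (srKO) for Fosl2 and 0.91 ± 0.10 (prKO) and 0.72 ± 0.09 (srKO) for Jun. Egr3, an early growth response factor, ran the other way, at 7.78, 7.22 and 7.34 in prKO and 7.42, 7.74, 7.97 and 7.78 on arrays labelled srKO, against 8.23, 8.40 and 8.79 in WT (-0.98 ± 0.13 in prKO and -0.70 ± 0.11 in srKO). In WT 16 of the 21 genes were lower and 3 higher at 2 months than at 2 weeks, where 55% of all genes were lower and 26.7% higher, with a median of -0.67, against -0.24 over all genes. Jun (-1.13 ± 0.10) and Fosl2 (-1.21 ± 0.10) were among those lower at 2 months in WT, and Egr3 (2.50 ± 0.11) and Klf4 (2.08 ± 0.08) were higher.

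**Figure D4:**
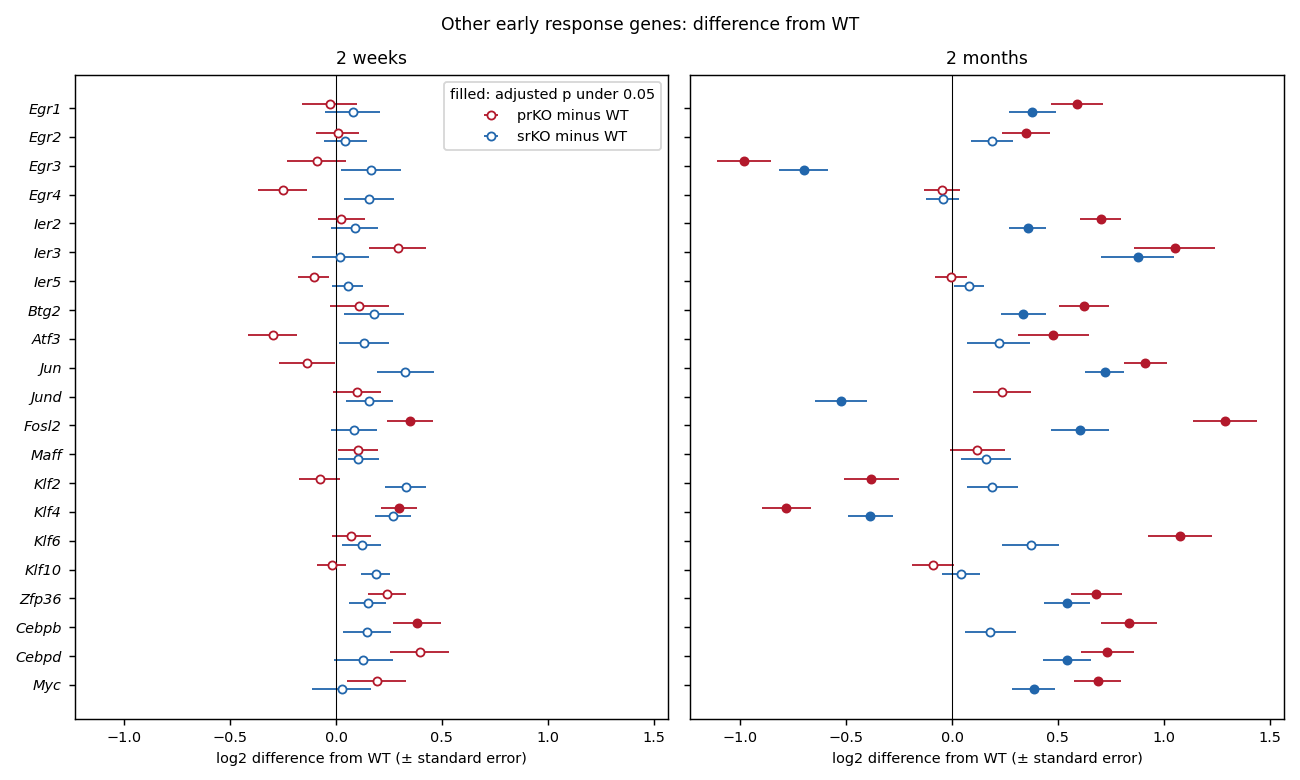
Log2 difference from WT, ± standard error, of the 21 other early response genes tested, at 2 weeks (left) and 2 months (right), filled where the adjusted p was under 0.05. At 2 months 13 genes are higher and 3 lower in prKO, with Fosl2 at 1.29 and Egr3 at -0.98.

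Last, the genes whose values most resembled those of 3 members were sought within each age, by Pearson's r over 20 arrays at 2 weeks and 19 at 2 months. These r describe arrays that share lines and cell makeup. For Nr4a1 they were Scarb1 (0.94), Cbarp (0.93) and Adipor2 (0.92) at 2 weeks, and Emc10 (0.93), Rfx1 (0.93) and Spn-ps (0.92) at 2 months. For Sik1 they were Cbarp (0.91), Pappa (0.90) and Nr4a1 itself (0.90) at 2 weeks, and Cdk16 (0.85), Rnf144a (0.84) and Pglyrp2 (0.83) at 2 months. For Crem they were Cox8c (0.97), Tsnaxip1 (0.96) and Tmem30c (0.96) at 2 weeks, and Dcun1d4 (0.95), Spata48 (0.95) and Fam81b (0.95) at 2 months. Scarb1, first for Nr4a1 at 2 weeks, encodes a receptor that takes up cholesterol ester from lipoproteins. No gene stood among the 3 nearest at both ages for any of the 3 members.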

How the data were processed

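Total RNA of 39 testes was labelled as biotinylated cDNA from 500 ng per sample and hybridised to Affymetrix arrays, per the labels' protocols. The extraction protocol in the labels names adrenal glands, while the other labels name whole testis. Per the submitters' processing notes the authors deposited RMA values, which are log2 intensities of 2.54 to 13.62 over 41345 probe sets and were used as deposited; no source used here gives the version, the settings or the genome build. Of the probe sets 23521 had 1 symbol in the platform annotation, 1814 several and 16010 none listed; 23328 matched the RefSeq gene table by Entrez identifier, and 0 symbols changed. No 2 arrays were identical. There is no read depth for arrays, and their number limits the precision.

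Genes with a group mean above 4.62, the 25th percentile, were tested in limma 3.58.1 (R 4.3.3), with 1 model of the 4 genotypes per age and 1 model of all 8 groups for the age contrasts, and Benjamini-Hochberg adjustment over 19007 genes, two-sided. On data simulated for prKO versus WT at 2 weeks with 19007 genes, 68% of added differences of 0.5 and 95% of added differences of 1 were recovered. Each size was added to 100 genes, and the noise was normal, independent between genes and of 1 spread per gene in all groups. These rates check the code and need not hold for the real arrays. The genes named were the 10 members, Prkar1a, up to 4 genes of each pathway list with the largest change among those called in a comparison, and the 3 genes nearest in pattern to Nr4a1, Sik1 and Crem. The members and lists were chosen with earlier results of these data known. Animals were labelled as biological replicates. Alternatives tried were the filter, the probe set rule, renewed quantile normalization, centring, array weights, a trended robust fit, fewer or more groups in the fit, the replicate number as a block, either set of 4 WT arrays alone, each array left out, and, chosen after seeing the data, 3 arrays high in markers of other tissue left out.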

Additional observations from a re-analysis of the deposited data

Results flagged for a closer look

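In 5 of the 70 groups of 4 to 10 arrays checked, 1 array stood apart from the rest of its group by Dixon's criterion, which chance alone meets in about 1 in 20 groups. Nr4a1 read 8.34 on WT replicate 8 at 2 weeks, with the next array at 7.81. Nr4a3 read 6.46 on WT replicate 4 at 2 weeks (next 5.86), the array high in smooth muscle markers, and 6.12 on WT replicate 5 at 2 months (next 5.86). Junb read 6.95 on replicate 3 of the arrays labelled lrKO at 2 weeks (next 6.63). Crem read 9.74 on WT replicate 5 at 2 months, the lowest of its group (next 9.90).

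Differences between lines passed the test for 4 results. Rgs2 (1.43) and Sik1 (0.44) were higher in prKO than on arrays labelled srKO at 2 months, and Nr4a1 (0.81) and Sik1 (0.86) were higher in srKO than on arrays labelled lrKO at 2 weeks. The change of the difference from WT between the ages passed the test in prKO for Nr4a1 (-1.73), Nr4a3 (-1.18), Per1 (-0.74), Sik1 (-0.62), Fos (0.39) and Rgs2 (1.49), and in srKO for Sik1 (-1.03), Nr4a1 (-0.86), Nr4a3 (-0.79) and Per1 (-0.48).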

How the results depend on the processing

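No difference of a member changed sign while it was called, under any alternative run. With 1 array left out 1762 results kept their side of the threshold, 33 lost their call and 15 gained one; under the other alternatives 1539 kept it, 30 lost a call, 50 gained one and 5 uncalled values moved. The number of members called in srKO versus WT at 2 weeks (2) was 0 with only the groups compared in the fit and 1 against WT replicates 5 to 8 alone. In srKO versus WT at 2 months (5) it was 2 with the replicate block and 2 against WT replicates 1 to 4 alone, and in lrKO versus WT at 2 months (0) it was 1 against those WT arrays, Per1 (0.43, adjusted p = 0.0464). In prKO versus srKO at 2 weeks (0) it was 3 with array weights and against WT replicates 5 to 8 alone, 2 with only the groups compared, with the replicate block and without the 3 arrays high in other tissue, and 1 with all 8 groups and against WT replicates 1 to 4 alone. In prKO versus srKO at 2 months (2) it was 1 with only the groups compared, and in srKO versus lrKO at 2 weeks (2) it was 4 with array weights or only the groups compared. The cause was not tested, beyond the smaller number of arrays in some of these fits. Within an age no other line has the replicate numbers 5 to 8. With the replicate block WT replicates 5 to 8 therefore do not enter the differences from WT. For these differences the block and WT replicates 1 to 4 alone are not separate checks.

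With each array left out in turn the counts ran over 3 to 5 in prKO versus WT, 0 to 3 in srKO versus WT and 0 to 0 in lrKO versus WT at 2 weeks, and over 5 to 6, 3 to 6 and 0 to 0 for these lines at 2 months. They ran over 0 to 1 and 1 to 3 in prKO versus srKO at 2 weeks and 2 months, 2 to 2 in srKO versus lrKO, 5 to 7 for age in WT, and 5 to 6, 4 to 5 and 0 to 0 for the change between ages in prKO, srKO and lrKO.

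Replicate numbers did not pair the arrays: 4 of 23 correlations of same-numbered arrays were over 0.1 (range -0.62 to 0.34), and 1 array correlated best with its own number. With the replicate block Rgs2 in prKO at 2 weeks was 0.31 (adjusted p = 0.306), Junb in prKO at 2 months 0.27 (0.0816), and on arrays labelled srKO at 2 months Sik1 was -0.32 (0.178), Fos 0.23 (0.134) and Nr4a3 -0.29 (0.0856), with adjusted p in brackets. The stricter filter at 5.94 left out Nr4a2 and Fos, which then have no value.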
